A study of Mus musculus with 6 samples.

Results

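Cytosolic ribosomal protein genes encode the protein components of the large (Rpl genes) and small (Rps genes) subunit of the ribosome that translates nuclear mRNAs. They were taken from the gene-level read counts by symbol, after the Ensembl identifiers had been matched to GENCODE release M21: protein-coding genes named Rpl or Rps plus a number, with Rplp0, Rplp1, Rplp2 and Rpsa, and without the kinases named Rps6k. The rule found 83 genes of the 48526 in the tables, 51 of the large and 32 of the small subunit, and used no measured value. RNA was sequenced from 6 primary cultures of mouse kidney tubule epithelium (renal tubular epithelial cells), 3 in each of 2 groups. The group called KO here came from Setd2(F/F)Ksp-Cre+ mice and is labelled SETD2-deficient, and the group called WT came from littermates with genotype Setd2(F/F), labelled SETD2-proficient. Setd2 encodes the enzyme that trimethylates lysine 36 of H3 in transcribed genes. The comparison asks which transcripts differ between tubular cells with and without this enzyme.

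Both groups carried floxed Setd2 alleles, and Ksp-Cre is driven by the promoter of Cdh16, a cadherin of kidney tubule epithelium. Cre was present in every KO culture and absent from WT, so its own effect and that of the deletion cannot be told apart. The mice were 4 to 5 weeks old, and cells of the digested cortex were grown in medium with 20 ng/ml EGF and 100 nM hydrocortisone, with no step described that selects tubular cells. The labels do not say whether the 3 replicates of a group came from separate mice, and p-values measure the spread between these libraries, which may be partly technical. Setd2 itself averaged 168 ± 16.3 CPM in WT and 158.5 ± 4.86 in KO (mean ± SD of 3 libraries each; CPM are counts scaled to library size with TMM factors). Its log2 fold change was -0.08 (edgeR quasi-likelihood test, Benjamini-Hochberg adjusted p = 0.481), and counts over the whole gene do not check the loss of the floxed exons.

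Ribosomal proteins are made in balanced amounts, assembled with ribosomal RNA in the nucleolus and rapidly degraded when they are left unassembled. Most of their mRNAs begin with a run of pyrimidines, the 5′ terminal oligopyrimidine (TOP) motif, through which mTOR signalling and LARP1 control their translation and stability. Mutations in several of these genes cause Diamond-Blackfan anaemia, a failure of red cell formation.

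The RefSeq promoter table (build GRCm38.p6) held 75 entries for 63 of the 83 genes. The windows of 30 bases below are centred on annotated starts and carry or lack the TOP-like tract. They come from genes with results described here and from Rps6, whose level is not described. Capitals mark the longest run of C followed by at least 4 bases that are each C or T, read on the sense strand.
Rpl34 (chr3:130730384-130730413, minus strand): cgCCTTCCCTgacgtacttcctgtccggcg
Rps27 (chr3:90213634-90213663, minus strand): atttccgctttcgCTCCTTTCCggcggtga
Rps27l (chr9:66946071-66946100, plus strand): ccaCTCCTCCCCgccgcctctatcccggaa
Rps26 (chr10:128626492-128626521, minus strand): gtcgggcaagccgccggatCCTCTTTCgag
Rpl35 (chr2:39005117-39005146, minus strand): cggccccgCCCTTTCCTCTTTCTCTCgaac
Rps6 (chr4:86857353-86857382, minus strand): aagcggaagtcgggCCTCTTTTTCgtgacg
Rpl9 (chr5:65391417-65391446, minus strand): acgcagggccctgacggattacaagaacgt
Rps4x (chrX:102189377-102189406, minus strand): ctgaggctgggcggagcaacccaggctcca
The tract stood within 15 bases of the start in 44 of the 75 entries (58.7%), against 36.4% of all 32851 promoters in the table. By gene, it was found in 9 of 14 genes lower in KO that had an entry, in 2 of 2 higher ones and in 29 of 45 that were not called. The annotated start of Rps26 lies 241 bases and that of Rpl35 lies 493 bases inside the GENCODE gene, so the true start may be elsewhere. The core CCGGAAG, bound by ETS factors, was in 36.0% of the members' 300-base promoters on either strand, against 8.86% of all.

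The 8-base core AAGATGGC, which the factor YY1 binds, was in 8 of the 75 entries (10.7%), against 2.75% of all promoters on either strand, and it can overlap CCGGAAG by the bases AAG. Of the 8 entries, 3 are the same match in Rpl35a seen from different annotated starts, and 6 of the 63 genes with an entry carry the core. By gene, it was in 5 of the 14 lower genes that had an entry and in 1 of the 45 that were not called, a split seen after the calls were known and given without a test. The matches in 4 of the lower genes are shown with the core, or its reverse complement, in capitals.
Rps27 (chr3:90213704-90213733, minus strand): aagaccttccgAAGATGGCgaagcaacacg
Rps15a (chr7:118116134-118116163, minus strand): actctctttctGCCATCTTccctcgccggt
Rpl35a (chr16:33056479-33056508, plus strand): ttcctctttccGCCATCTTggcgcctgtgg
Rpl7l1 (chr17:46782617-46782646, minus strand): gaagcaccggaAAGATGGCggaggaagggt
The other lower gene with a match was Rpl22, and the uncalled gene was Rpl13a. A match describes these letters only, and no binding was measured.

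Counted reads per library ran from 86078636 to 106974842. Xist, which coats the inactive X, stood at 507 and 606 CPM in KO replicates 2 and 3 and at most 0.683 CPM in the other 4 libraries. The Y-linked Ddx3y showed the reverse, at no more than 0.0840 CPM in those KO replicates and 51.0 to 66.9 CPM in the other 4. By these genes KO replicates 2 and 3 were female and the other 4 libraries male, so the KO cultures came from more than 1 mouse. Markers of podocytes (5 of 8 tested), endothelium (6 of 10), fibroblasts (4 of 7) and leukocytes (3 of 8) were higher in KO and none of these lists had a lower member, with summed levels of 105 to 108 CPM in WT and 171 to 206 CPM in KO for podocytes and of 21.2 to 22.8 CPM and 31.3 to 41.9 CPM for endothelium. The summed level was 62.4 to 85.9 CPM in WT and 66.3 to 121.5 CPM in KO for fibroblast markers and 28.7 to 33.8 CPM and 42.5 to 51.6 CPM for leukocyte markers. Globin genes were at 0 in every library, and 2 of 10 leukocyte markers were at 0 in WT. Of the 9 tubule markers 2 were higher in KO and 0 lower, and they summed to 6460 to 7505 CPM in WT and 7419 to 7492 CPM in KO. Over all tested genes 12.0% were higher in KO. The part of these cells and of the Xist difference in the ribosomal protein results was not tested beyond the values given with them, and fewer cells of a type cannot be told apart from less RNA per cell.

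Ribosomal protein mRNA was about as abundant in both groups, and the WT libraries differed from each other more than the groups did. The 83 genes took 3.10, 3.32 and 3.88% of all counts in WT replicates 1 to 3 and 3.16, 3.26 and 3.18% in KO replicates 1 to 3. Their summed level was 30862, 33465 and 38475 CPM in WT and 32248, 32578 and 31378 CPM in KO. WT replicate 3 stood above the 5 other libraries, and WT replicate 1 stood below the 3 KO libraries, so the groups overlapped. Mean summed levels of 34267 ± 3869 in WT and 32068 ± 620 in KO (CPM, SD, n = 3 each) gave a ratio of 0.936 that was 0.996 without WT replicate 3 and 0.898 without WT replicate 1.

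**Figure D1:**
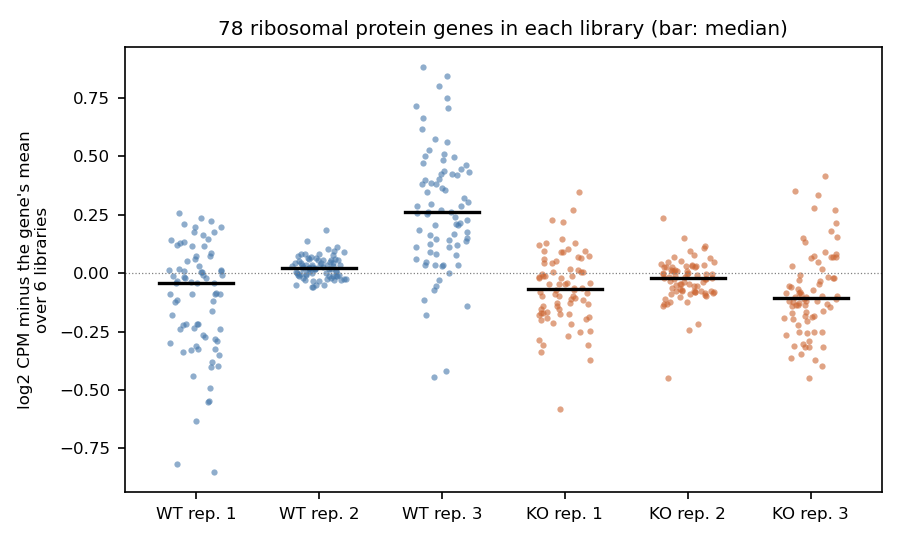
Each point is 1 of the 78 ribosomal protein genes with a mean of at least 30 CPM, plotted as its log2 CPM in a library minus its mean over the 6 libraries, with the median of each library as a bar. The median is highest in WT replicate 3 (0.26), and WT replicate 1 has the points that lie farthest below 0.

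WT replicate 3 was the library with the highest value for 61 of the 81 tested genes, and it was the highest of the 3 WT libraries for 70. WT replicate 1 was the lowest of the WT libraries for 53. The median deviation of the members from their own means was -0.04, 0.02 and 0.26 (log2) in WT replicates 1 to 3 and -0.07, -0.02 and -0.10 in the KO replicates. Among the 78 members with a mean of at least 30 CPM, the median coefficient of variation was 15.7% in WT and 4.69% in KO, and it was larger in WT for 70 of them (89.7%). Over the 6031 other genes at that level it was 7.52% in WT and 4.52% in KO, and larger in WT for 72.6%.

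Of the 83 genes, 81 passed the filter on low counts, and 20 of them differed between KO and WT, 17 lower and 3 higher in KO. Among all 17571 tested genes, 21.0% were called, 12.0% as higher and 9.08% as lower, against 24.7% of the members, 3.70% as higher and 21.0% as lower. The median log2 fold change was -0.15 over the members and -0.01 over all tested genes, and 59 of the 81 values were negative. All 3 KO libraries lay below all WT libraries in 26 members (32.1%) and above them in 7 (8.64%), where 21.3% and 20.6% of all tested genes did so (41.9% in either direction). The large subunit had 9 lower and 2 higher of 49 tested genes (median -0.14), and the small subunit had 8 lower and 1 higher of 32 (median -0.20).

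**Figure D2:**
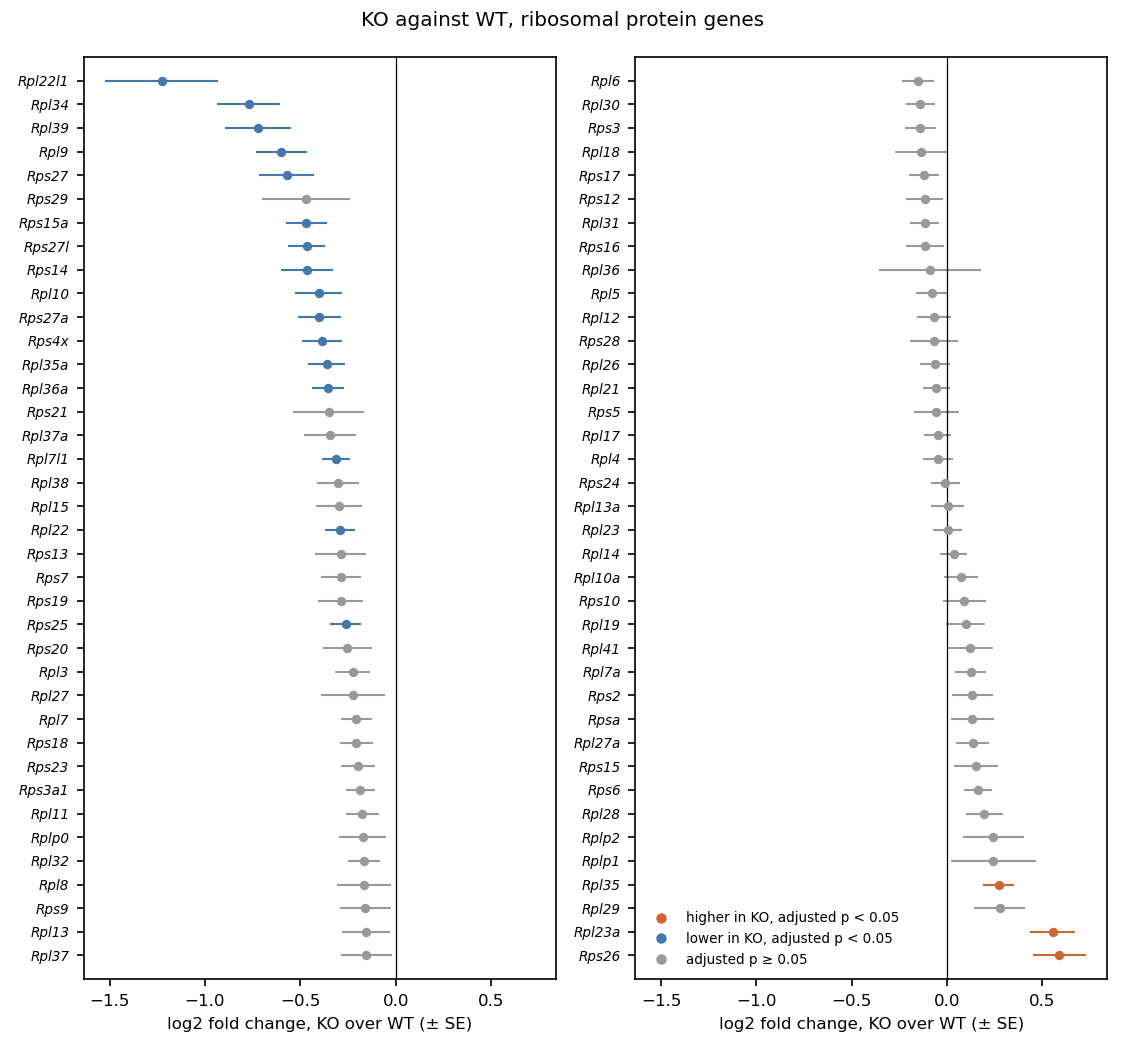
Log2 fold changes of KO over WT with their standard errors for 76 of the 81 tested ribosomal protein genes, from the lowest at upper left to the highest at lower right. Most points lie left of 0, and called genes (blue lower, orange higher) include those at both ends.

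These counts moved with single libraries. Without KO replicate 1, 3 members were called (Rpl23a, Rps26 and Rps27l), and without KO replicate 3, 4 were (Rpl23a, Rpl34, Rpl9 and Rps27l). Over the whole table the calls also fell, from 3698 to 1683 and 1933. In all libraries the log2 fold changes of Rpl9, Rpl39 and Rpl34 were -0.60, -0.72 and -0.77. They were -0.57, -0.69 and -0.66 without KO replicate 1 and -0.53, -0.69 and -0.92 without KO replicate 3. Without WT replicate 1 there were 34 calls, 31 of them lower, and without WT replicate 3 there were 13, 10 of them lower, with a median of -0.05. Both libraries with Xist are KO, so a model with a term for Xist sets KO replicate 1 alone against WT. In it the log2 fold changes of Rpl34, Rpl9 and Rpl39 were -0.99, -0.62 and -0.76. Calls lost with this term, here and in the lists below, cannot be told apart from the loss of 2 KO libraries. None of the 20 called members changed direction in any of the 23 alternative settings that kept it. In 19 of them the groups did not overlap, so leaving out libraries could hardly turn their direction. The steady direction is therefore no support for the calls.

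**Figure D3:**
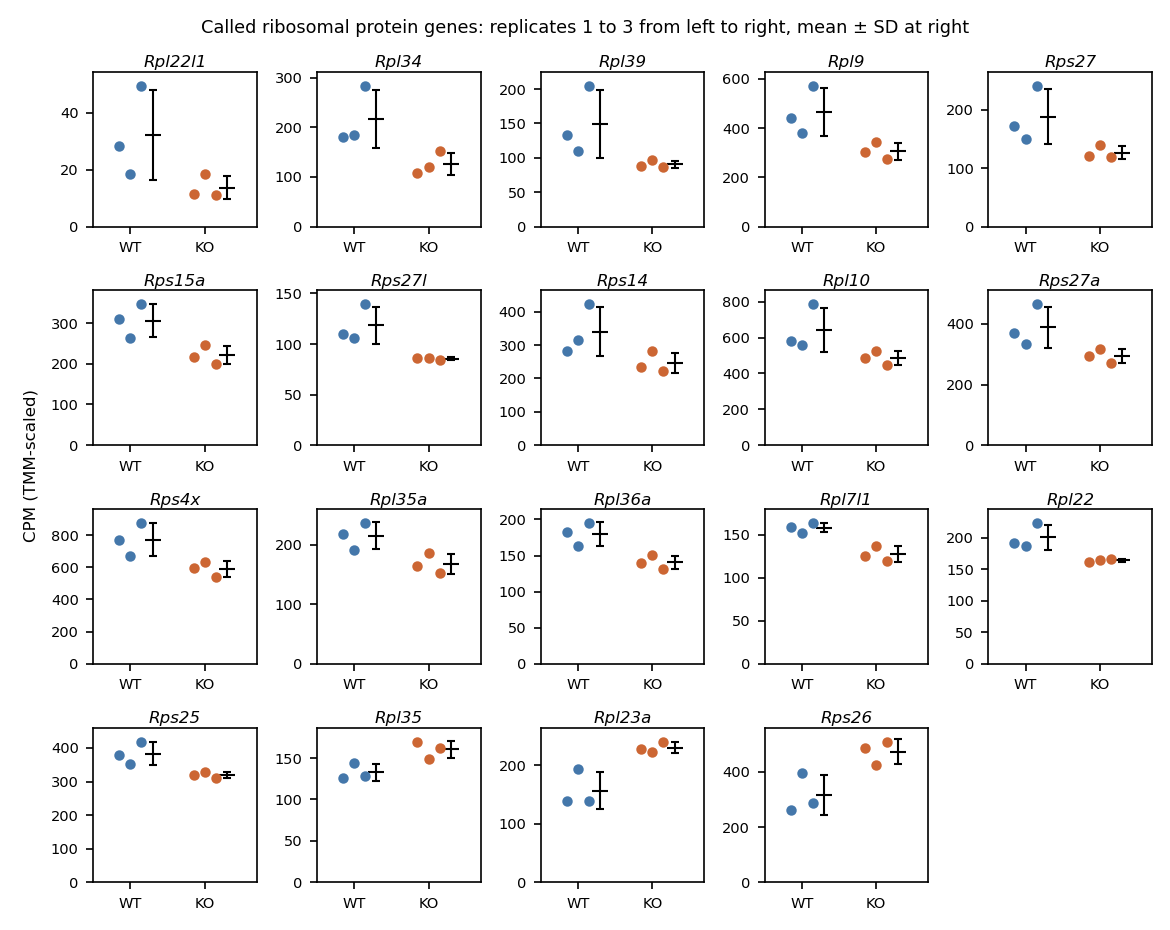
CPM of 19 of the 20 called ribosomal protein genes in replicates 1 to 3 of WT (blue) and KO (orange), with mean ± SD in black, from the lowest to the highest log2 fold change. WT replicate 3 is the highest WT library in each lower gene shown, and of the genes shown the groups overlap only in Rpl22l1.

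Among large subunit genes, the lower ones were led, after the paralog Rpl22l1 described below, by Rpl34 and Rpl39. Rpl34 (ENSMUSG00000062006, chromosome 3, 130726831 to 130730398, mm10) was at 180.0, 184.7 and 283.6 CPM in WT and at 108.7, 119.3 and 151.7 CPM in KO. Every KO library was below every WT library, and WT replicate 3 stood far above the other WT libraries. The log2 fold change was -0.77 ± 0.17 (SE), 1.71-fold lower in KO (edgeR adjusted p = 0.00883), and -0.53 without WT replicate 3, with an adjusted p of 0.0573 without KO replicate 1. Rpl9, which sits near the factor-binding site of the large subunit, was at 441, 381 and 572 CPM in WT and at 302, 343 and 274 CPM in KO. Its fold change was -0.60 ± 0.13 (edgeR adjusted p = 0.0103), with no overlap between groups. Without KO replicate 1 its adjusted p was 0.0551.

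Rpl35a, a gene mutated in Diamond-Blackfan anaemia, was at 218, 190 and 236 CPM in WT and at 165, 186 and 152 CPM in KO. Its 2 closest libraries, WT replicate 2 and KO replicate 2, were nearly level, and its log2 fold change was -0.36 ± 0.10 (adjusted p = 0.0235). Rpl22, a large subunit protein with an RNA-binding role in lymphocyte development, fell from 192, 187 and 223 CPM to 161, 165 and 166 CPM. Its KO libraries were close together, and its log2 fold change was -0.29 ± 0.08 (adjusted p = 0.0253 with edgeR). Calls of both genes were lost without KO replicate 1 (adjusted p = 0.111 and 0.129), without KO replicate 3 (0.104 and 0.0747) and without WT replicate 3 (0.0528 and 0.0515), and that of Rpl22 also without KO replicate 2 (0.0692).

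All 4 members on the X chromosome were lower in KO. Rpl39 (ENSMUSG00000079641, chromosome X, 37082520 to 37085402), a small basic protein in the wall of the exit tunnel, was at 134, 110 and 205 CPM in WT and at 88.3, 96.6 and 86.7 CPM in KO. Rpl10, which joins the large subunit in the last steps of assembly next to the catalytic centre, was at 583, 558 and 785 CPM in WT and at 486, 526 and 445 CPM in KO. Rps4x, the X-linked form of a small subunit protein, was at 769, 670 and 875 CPM in WT and at 594, 635 and 539 CPM in KO. No KO library reached a WT library in these genes. Rpl36a, a protein at the exit site for tRNA, was at 182, 163 and 195 CPM in WT and at 140.1, 150.1 and 132 CPM in KO, also without overlap. The log2 fold changes were -0.72 ± 0.17 for Rpl39, -0.40 ± 0.12 for Rpl10, -0.39 ± 0.10 for Rps4x and -0.36 ± 0.08 for Rpl36a, with edgeR adjusted p of 0.0139, 0.0384, 0.0229 and 0.0134. In KO replicate 1, the KO library without Xist, all 4 were below every WT library. All 4 calls were lost without KO replicate 1, at adjusted p of 0.0690 to 0.131, and when KO replicate 3 was left out (0.0574 to 0.136), and those of Rpl10 and Rps4x without WT replicate 3 (0.0733 and 0.0508). Without that WT library the log2 fold change was -0.43 for Rpl39 and -0.24 for Rpl10. With that term for Xist in the model, which sets KO replicate 1 alone against WT, the 4 log2 fold changes were -0.76, -0.40, -0.38 and -0.36 in the same order. Among the 628 tested genes on the X chromosome, 51 were lower and 69 higher, with a median of 0.02, and on the autosomes 13 of 77 tested members were lower and 3 higher.

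In the small subunit, Rps27 was among the genes that fell most. Rps27, a zinc-finger protein on the solvent side of the platform, was at 172, 150.5 and 241 CPM in WT and at 121, 139 and 119.8 CPM in KO. WT replicate 2 was only just above KO replicate 2, and WT replicate 3 was far above all others. The log2 fold change of Rps27 was -0.57 ± 0.14 (edgeR adjusted p = 0.0173), and -0.35 without WT replicate 3. Without KO replicate 1 its adjusted p was 0.0887, and without KO replicate 3 it was 0.0700.

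Rps15a, which joins the small subunit early in assembly, was at 309, 263 and 346 CPM in WT and at 218, 245 and 200.3 CPM in KO. Rps27a, which is made as a fusion with ubiquitin, was at 369, 334 and 464.5 CPM in WT and at 295, 317 and 273 CPM in KO. Neither gene had overlapping groups. Their log2 fold changes were -0.47 ± 0.11 and -0.40 ± 0.11 (edgeR adjusted p = 0.0111 and 0.0284). Rps14, the gene tied to the anaemia of the 5q- syndrome, was at 282, 314 and 422 CPM in WT and at 235, 281 and 222 CPM in KO, with WT replicate 1 and KO replicate 2 nearly level. Its log2 fold change was -0.46 ± 0.14 (adjusted p = 0.0343 with edgeR). Without KO replicate 1 the adjusted p was 0.0624 for Rps15a, 0.111 for Rps27a and 0.142 for Rps14, and without KO replicate 3 the 3 values lay between 0.0539 and 0.129. Without WT replicate 3 it was 0.0553 for Rps27a and 0.0689 for Rps14, with log2 fold changes of -0.26 and -0.28, and without WT replicate 2 it was 0.0508 for Rps14.

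Rps26, Rpl23a and Rpl35 were higher in KO. Rps26 (ENSMUSG00000025362, chromosome 10, 128624534 to 128626747), which contacts mRNA just upstream of the start codon and is mutated in Diamond-Blackfan anaemia, was at 261, 398 and 286 CPM in WT and at 487, 425 and 510.0 CPM in KO. WT replicate 2 stood above the other WT libraries but below every KO library. The log2 fold change was 0.59 ± 0.14, 1.50-fold higher in KO (edgeR adjusted p = 0.0124), and 0.48 to 0.79 when each library was left out in turn. The call was lost without KO replicate 3 (adjusted p = 0.0538). Rpl23a (ENSMUSG00000058546, chromosome 11, 78180932 to 78183584), which rims the exit tunnel and binds the signal recognition particle, was at 139, 193 and 139 CPM in WT and at 228, 222 and 240.5 CPM in KO. Its groups did not overlap, and its log2 fold change was 0.55 ± 0.12 (edgeR adjusted p = 0.00761). It passed the test without each library in turn (edgeR adjusted p from 0.000965 to 0.0356). Only 14.3% of the 50-base stretches of Rpl23a are found in no other annotated transcript, so its counts are uncertain. The level of Rps26 was high in the same WT library, replicate 2, as that of Rpl23a.

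Rpl35, the neighbour of Rpl23a at the tunnel exit, was at 126, 145 and 129 CPM in WT and at 169.8, 149 and 163 CPM in KO. WT replicate 2 and KO replicate 2 were nearly level, and the log2 fold change was 0.27 ± 0.08 (edgeR adjusted p = 0.0343). Its call was lost without WT replicate 3, KO replicate 1 or KO replicate 3 (adjusted p = 0.0614, 0.130 and 0.113). It was also lost after a correction for GC content (adjusted p = 0.0703). Exon bases of Rpl35 overlap those of Arpc5l and Wdr38 over 66.2% of their length, and those of Rpl23a overlap Tlcd1 and Snord42b over 62.3%, mostly on the other strand. No source used here states the strand setting of the counting, and reads of these pairs cannot be told apart. Tlcd1 was also higher in KO, at 4.16 ± 0.24 and 5.63 ± 0.38 CPM (adjusted p = 0.0219), while Arpc5l was at 59.1 ± 2.06 and 54.5 ± 1.35 CPM (adjusted p = 0.263). Rps26 shares no exon base with another gene.

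The P-stalk and its base, which recruit elongation factors to the ribosome, had no called member when all libraries were used with the filter on low counts. Rplp1 was at 221, 404 and 510.1 CPM in WT and at 426, 413 and 503 CPM in KO, with WT replicate 1 far below the rest. Rplp2 was at 131, 212 and 224 CPM in WT and at 211, 213 and 246 CPM in KO, and Rplp0 was at 1033, 1302 and 1533 CPM in WT and at 1117, 1215 and 1101 CPM in KO. The log2 fold changes were 0.24 ± 0.22 for Rplp1 (-0.02 without WT replicate 1), 0.24 ± 0.16 for Rplp2, -0.17 ± 0.12 for Rplp0 and -0.07 ± 0.09 for Rpl12 (edgeR adjusted p = 0.458, 0.301, 0.342 and 0.615). None of the 4 had an unadjusted p below 0.05 with edgeR, DESeq2 or limma-voom. Without WT replicate 1 Rplp0 was called lower (log2 -0.30, edgeR adjusted p = 0.0366), and without the filter Rplp1 and Rplp2 were called higher (adjusted p = 0.0378 and 0.0421). Over the fits that left out a library, the log2 fold change ran from -0.30 to -0.03 for Rplp0 and from 0.05 to 0.38 for Rplp2.

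Rpl5 and Rpl11 form the 5S particle with its RNA and, when free, bind the p53 inhibitor Mdm2. Rpl5 was at 736, 689 and 633 CPM in WT and at 659.9, 679 and 606 CPM in KO, with overlapping groups. Rpl11 was at 430.3, 451.5 and 525 CPM in WT and at 419, 419 and 408 CPM in KO, all KO libraries being slightly lower. Neither was called (log2 -0.08 ± 0.08 and -0.18 ± 0.09, edgeR adjusted p = 0.514 and 0.162), and with the GC correction Rpl11 was (adjusted p = 0.0377). Of 8 proteins of the exit tunnel wall and rim, Rpl23a and Rpl35 were higher and Rpl39 lower, and Rpl4, Rpl17, Rpl19, Rpl26 and Rpl31 were not called. Of 5 proteins at the mRNA entry channel and decoding centre, none was called, with 1 at an unadjusted p below 0.05 (median -0.14). A list of 12 genes mutated in Diamond-Blackfan anaemia, which need not hold every such gene, had Rps26 higher and Rpl35a lower. The others on it, which include Rps19, Rps24 and Rpl5, did not pass the test (median of the 12 -0.15).

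Levels per length spread widely between members. As CPM per kilobase of a reference transcript, the highest were Rpl41, the shortest protein of the ribosome, at 1323 ± 244 in WT and 1439 ± 21.5 in KO, then Rpl32 at 1074 ± 105 and 958 ± 25.5. Rps2, at the mRNA entry, was at 1045 ± 160.1 and 1145 ± 38.5 CPM per kilobase, Rpl7a at 1026 ± 73.0 and 1118 ± 25.8, and Rps18, in the head of the small subunit, at 1025 ± 85.5 and 888 ± 51.4. In WT, Rpl41 stood above Rpl32 by slightly more than its SD, and the other 4 did not differ from the next in order by more than their SD. None of the 5 was called, but Rps18 was called lower with the GC correction (log2 -0.24, edgeR adjusted p = 0.0166), without WT replicate 1 (0.0394) and without a filter on low counts (0.0397). At the low end, Rpl22l1 was at 58.2 ± 28.8 in WT and 24.9 ± 7.37 in KO, Rpl13a at 36.0 ± 3.19 and 36.1 ± 0.729 and Rpl24 at 0.296 ± 0.0351 and 0.239 ± 0.0744 CPM per kilobase. Rpl24, a core protein, had only 16, 20 and 22 reads in WT and 10, 15 and 21 in KO. Of its exon bases, 47.0% lie in a second gene model on the same strand, Gm28037, which had 0 reads in every library, and Rpl13a shares 35.4% of its exon bases with same-strand models. No source used here states how reads in such overlaps were counted, and these levels are uncertain.

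Several ribosomal proteins have a paralog that can take their place. Rps27l (ENSMUSG00000036781, chromosome 9, 66946086 to 66949516), a target of p53, and its core partner Rps27 are 75.0% identical over 252 aligned coding bases. Their longest identical run is 11 bases, so coding reads of the 2 genes can be told from each other. Only 1.35% of the 50-base stretches of Rps27 are found in no other annotated transcript, against 86.3% for Rps27l. Counts of Rps27, and the ratio to it, are therefore uncertain. The first 60 coding bases of the 2 genes are shown with their 18 differences in capitals.
Rps27: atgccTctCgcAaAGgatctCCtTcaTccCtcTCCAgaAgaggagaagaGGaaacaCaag
Rps27l: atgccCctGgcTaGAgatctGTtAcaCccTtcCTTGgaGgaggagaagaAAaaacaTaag
Rps27l was at 109.8, 106.1 and 139 CPM in WT and at 86.6, 86.2 and 84.2 CPM in KO, with KO libraries within a narrow range below every WT library. Its log2 fold change was -0.47 ± 0.10 (edgeR adjusted p = 0.00726), and it passed the test without each library in turn. Its counts were 63.7, 70.5 and 57.7% of those of Rps27 in WT and 71.8, 62.0 and 70.3% in KO. This ratio overlapped between groups (exact two-sided permutation test p = 0.6).

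Rpl22l1 (ENSMUSG00000039221, chromosome 3, 28805436 to 28807424) had the largest fold change of all members. It was at 28.4, 18.4 and 49.5 CPM in WT and at 11.6, 18.4 and 11.2 CPM in KO, and WT replicate 2 and KO replicate 2 were level. The log2 fold change was -1.23 ± 0.30 (edgeR adjusted p = 0.0146), or -0.77 without WT replicate 3, and the adjusted p was 0.0766 without KO replicate 1 and 0.0654 without KO replicate 3. It stood at 14.8, 9.85 and 22.2% of the counts of its partner Rpl22 in WT and at 7.20, 11.1 and 6.74% in KO (exact permutation p = 0.2). Rpl7l1, a relative of Rpl7 with a role in assembly, was at 159, 153 and 164 CPM in WT and at 126, 138 and 119.4 CPM in KO. Its groups did not overlap and its WT libraries were close together (log2 -0.31 ± 0.07, edgeR adjusted p = 0.0138), with an adjusted p of 0.0859 without KO replicate 1 and 0.0723 without KO replicate 3. It stood at 14.4 ± 0.56% of Rpl7 in WT and 13.4 ± 0.50% in KO (exact permutation p = 0.2), and Rpl7 itself was at 1102 ± 56.8 and 955 ± 47.5 CPM (log2 -0.21, adjusted p = 0.0879).

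Rpl36al, which the symbol rule leaves out, was at 54.7, 61.7 and 52.9% of the counts of its X-linked partner Rpl36a in WT and at 70.7, 63.8 and 71.9% in KO. The groups did not overlap, with an exact permutation p of 0.1, the smallest that 3 against 3 allows. Over the 5 ratios tested, the Benjamini-Hochberg adjusted p was 0.333 for Rpl36al, Rpl22l1 and Rpl7l1 and 0.6 for Rps27l and Rpl3l. Rpl36al itself averaged 101 ± 1.90 and 96.5 ± 2.15 CPM in WT and KO (log2 -0.07, adjusted p = 0.493). The muscle paralog Rpl3l had 4, 14 and 13 reads in WT and 11, 5 and 15 in KO, where its partner Rpl3 was at 920 ± 89.1 and 787 ± 61.3 CPM (log2 -0.23, adjusted p = 0.105). Rpl10l and Rpl39l, which replace the X-linked Rpl10 and Rpl39 in male germ cells, failed the filter, with no read for Rpl10l and 1 read for Rpl39l. Of 3 related loci that M21 types as pseudogenes, Rps4l was higher in KO at 12.9 ± 3.58 and 23.3 ± 1.59 CPM (log2 0.85, adjusted p = 0.00564), and Rps3a2 and Rps3a3 were not called (adjusted p = 0.0772 and 0.905).

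Base composition moved with the values of 1 library. In WT replicate 1, the tenth of other protein-coding genes with the highest GC content had a median deviation of -0.36 (log2) and the tenth with the lowest had 0.19, a difference of -0.56, where the difference in the other 5 libraries was between -0.02 and 0.22. Across the 78 members with a mean of at least 30 CPM, which share their libraries, the log2 fold change correlated with GC content at Pearson's r = 0.29 and Spearman's rho = 0.32. Of 14 such members under 48% GC, 5 were lower and 0 higher (median -0.23). Of 33 between 48 and 53%, 9 were lower and 2 higher (median -0.17), and of 31 over 53%, 2 were lower and 1 higher (median -0.06). With GC-dependent offsets for each library, chosen after seeing the data, 28 members were called, 24 lower and 4 higher. Of the 20 first called, 17 were among them and Rpl22, Rpl35 and Rps25 were not, and Rps19, Rps7 and Rpl38 were among the 11 gained.

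**Figure D4:**
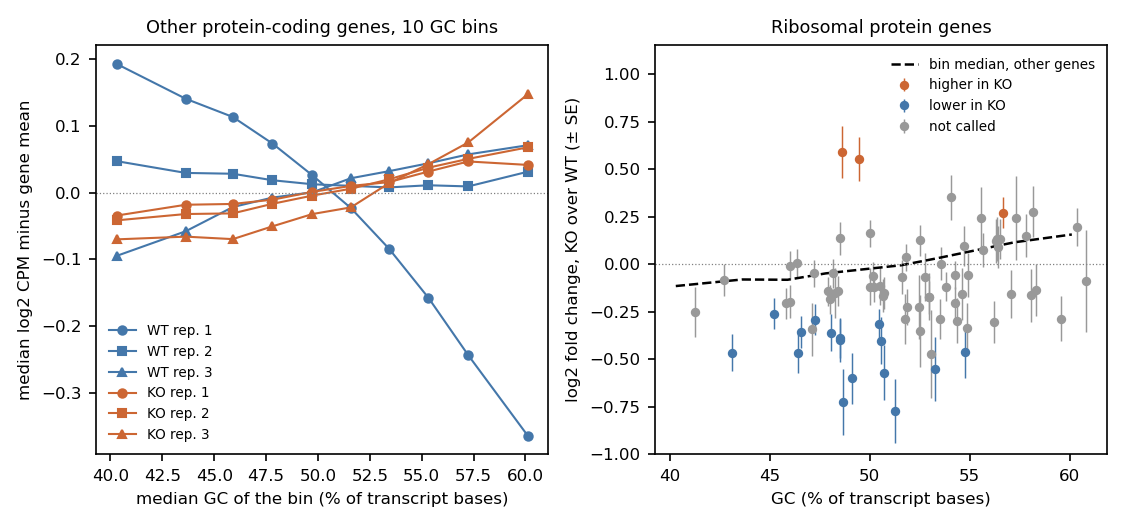
Left, median deviation (log2 CPM minus the gene's mean over 6 libraries) of other protein-coding genes in 10 bins of GC content, for each library. Right, log2 fold change of KO over WT with its standard error against GC content for 78 ribosomal protein genes, with the bin medians of other genes dashed. WT replicate 1 falls from 0.19 to -0.36 with rising GC, and the ribosomal protein genes lie mostly below the dashed line in the middle of the range.

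Ribosomal protein genes have many processed pseudogenes, which can take or lend reads. The 268 loci named as such held 0.215 to 0.342% as many counts as the members in the 6 libraries, and of 102 tested 1 was lower and 2 were higher. The share of a member's 50-base stretches found in no other annotated transcript ran from 1.35% for Rps27 to 100%. It was under 50% for 52 of the 83 genes. Among them were the called Rpl35 (4.91%), Rpl10 (7.87%), Rpl9 (13.3%), Rpl23a (14.3%) and Rpl36a (14.5%), whose counts are uncertain as well. Among the 29 tested members with at least 50% of their stretches unique, 7 were lower and 1 higher (median -0.16). Among the 70 tested members with under 20% of exon bases in another gene, 15 were lower and 1 higher (median -0.16).

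Genes that build and run the ribosome, from lists set beside the members, moved by small amounts. Of 77 tested mitochondrial ribosomal protein genes, whose products form the separate ribosome of mitochondria, 13 were lower and 0 higher (3 higher at an unadjusted p below 0.05, 1 with DESeq2, 0 with limma-voom), with a median of -0.13. Mrpl3 went from 64.7 ± 1.86 to 50.1 ± 0.911 CPM, and Mrps14 from 29.2 ± 5.61 to 19.0 ± 2.44 CPM. The 13 lower calls were 0 with the term for Xist, 4 without KO replicate 1 or KO replicate 3, 7 or 8 without any one of KO replicate 2, WT replicate 2 and WT replicate 3, 8 with the replicate block and 20 with the GC correction. Of 54 assembly factors 8 were lower and 0 higher (2 higher at an unadjusted p below 0.05, 0 with DESeq2 and 0 with limma-voom), with a median of -0.05. They included Nip7 (log2 -0.32), needed for pre-rRNA processing, and Utp20 (-0.30), Imp3 (-0.37) and Wdr12 (-0.33). None of these factors was called with the term for Xist or without KO replicate 1 or KO replicate 3, and there were 4 lower calls without WT replicate 3 and 5 with the replicate block or without WT replicate 2. Of 16 RNA polymerase I genes, Polr1c, Polr1d and Znrd1 were lower (-0.32, -0.25 and -0.38) and Cd3eap higher (0.26). No lower call was left in this group with the term for Xist or without WT replicate 3, KO replicate 1 or KO replicate 3, and the higher one was lost with that term, with the replicate block and without any library but WT replicate 1.

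Of 9 tested noncoding hosts of small nucleolar RNAs, several of which begin with a TOP tract, 7 were lower and 0 higher in KO (0 higher at an unadjusted p below 0.05 with edgeR, DESeq2 or limma-voom), with a median of -0.37. Gas5 went from 109 ± 8.93 to 84.5 ± 1.75 CPM (log2 -0.37, edgeR adjusted p = 0.00611), Snhg1 from 41.1 ± 2.59 to 30.2 ± 1.52 CPM (-0.44), Snhg12 from 9.48 ± 1.34 to 6.60 ± 0.219 CPM (-0.52) and Zfas1 from 29.7 ± 4.12 to 22.3 ± 1.67 CPM (-0.42). With that term for Xist in the model, 0 of the 9 passed the test, with 5 lower at an unadjusted p below 0.05, and without WT replicate 3, KO replicate 1 and KO replicate 3 the numbers called were 3, 2 and 3. Among 16 elongation factors and other mRNAs with a TOP tract, Pabpc1 (0.36) and Eif3l (0.25) were higher and Naca (-0.23) lower, and Eef1a1, which brings tRNAs to the ribosome, was at 8113 ± 494 and 7965 ± 513 CPM (adjusted p = 0.870). The share called in this list of elongation factors and TOP mRNAs was 18.8%, against 21.0% of all tested genes. Of 31 initiation factors, Eif1 (-0.50), Eif3m (-0.34) and Eif1ax (-0.24) were lower and the X-linked Eif2s3x (0.33) was higher. Of the initiation factors 12.9% were called and 9.68% were lower, where 9.08% of all tested genes were lower. The higher call was lost with the term for Xist and without WT replicate 2, WT replicate 3, KO replicate 2 or KO replicate 3, and the 3 lower calls were 0 with that term and 1 without KO replicate 1 or KO replicate 3. Among the elongation factors and TOP mRNAs, nothing was called with that term or without any single KO library.

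**Figure D5:**
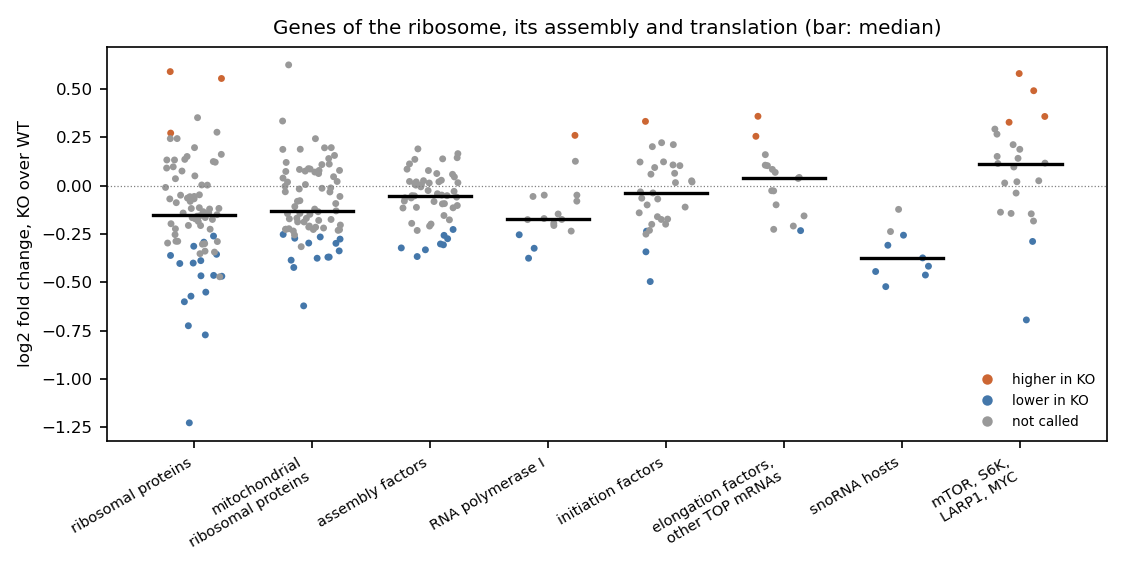
Log2 fold change of KO over WT for each tested gene of 8 groups, from ribosomal proteins to regulators, with the group median as a bar and called genes coloured. The hosts of small nucleolar RNAs (median -0.37) lie lowest, and in each of the other groups values lie on both sides of 0.

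Among 23 regulators of ribosomal protein synthesis (mTOR complex 1, S6 kinases, LARP1 and MYC factors), Myc rose from 173 ± 17.5 to 243 ± 13.6 CPM (log2 0.49, edgeR adjusted p = 0.00302), and Mnt (0.58) and Max (0.36) rose. Mycn was lower at 13.6 ± 1.27 and 8.40 ± 0.887 CPM (-0.69). The share called in this list was 26.1%, against 21.0% of all tested genes. Mtor (0.15), Larp1 (0.11) and the S6 kinase gene Rps6kb1 (-0.18) were not called (adjusted p = 0.130, 0.266 and 0.128). The 4 higher and 2 lower calls of this list were 2 and 1 with the term for Xist and without KO replicate 1 or KO replicate 3. Fau, Rack1, Rpl36al and Rps27rt, which lie outside the symbol rule, were not called.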

How the data were processed

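The files deposited by the authors give, per library, raw counts of reads for each Ensembl gene. The submitters' processing notes list Trimmomatic 0.38, STAR 2.7.1a, HTSeq 0.11.2 and mm10. Settings, annotation and strand were not given in the sources used here, which affects overlapping genes and near-identical copies. Symbols, coordinates, transcript lengths and GC content came from GENCODE M21 (GRCm38, which mm10 names).

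Counts were filtered with filterByExpr, scaled with TMM and tested with edgeR 4.0.16 (quasi-likelihood, genotype as the only term) in R 4.3.3, with Benjamini-Hochberg adjustment over all 17571 tested genes and a threshold of 0.05. Standard errors were obtained by dividing each log2 fold change by the root of its F value. SDs cover 3 libraries a group. At 86078636 to 106974842 counts per library, counting error is largest relative to the level for genes under about 1 CPM. It can also be a large part of the small SDs of some genes above that level. Members with under 30 CPM were left out of the spread and GC analyses. GC and length offsets were medians of other genes in 20 bins. DESeq2 1.42.0 and limma-voom (limma 3.58.1) were alternatives, with other scalings, filters, a model term marking the libraries that passed 10 CPM of Xist, the replicate number as a block and each library left out. The fit was tested on simulated data. Replicates of a group differed by a chi-square of 22.7 to 77.1 per degree of freedom, so none was a copy. Coding sequences were aligned with Biopython 1.88 and figures drawn with matplotlib 3.10.9.

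The members, lists and tests were chosen with earlier results of these data known. Named were called members up to the 15 smallest adjusted p in each direction, the 5 highest and 5 lowest per kilobase, paralogs with their partners, stalk and 5S particle genes, members on the X chromosome and those failing the filter, and up to 4 called genes of each other list. Others named were chosen after their values were seen. Some members counted here are not reported by name or drawn with a label.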

Additional observations from a re-analysis of the deposited data

How the results depend on the processing

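The 20 calls among ribosomal protein genes (3 higher, 17 lower) were 17 to 21 under other scalings, the length offsets, a mean CPM of at least 1, DESeq2 and limma-voom. With no filter there were 38 (7 higher, 31 lower). With the Xist term there was 1 (0 higher, 1 lower; 3 and 15 at an unadjusted p below 0.05) and 1163 over all genes, and without the Xist-positive libraries, where the lone KO library is assumed to vary like WT, 1 (0 higher, 1 lower; 3 and 14 unadjusted) and 907. Leaving out each library gave 3 to 34 calls (1 to 4 higher, 1 to 31 lower) and 1683 to 3766 over all genes. With GC offsets as well there were 37 calls (35 lower) without WT replicate 1 and 18 without WT replicate 3. Members with at least 50% of their 50-base stretches unique had 8 calls (1 higher, 7 lower), and those with little overlap 1 higher. The median log2 fold change ran from -0.23 to -0.04 and the ratio of summed levels from 0.898 to 0.996 over all settings. The labels do not say whether same-numbered cultures were prepared together. Deviations of same-numbered libraries correlated at 0.04, -0.15 and 0.03 over all genes and at 0.12, -0.72 and 0.06 over members. Such values cannot decide whether the samples are paired. The replicate block gave 21 member calls, 19 of them shared, and 25 with length offsets (5 higher). No called member turned direction, which the lack of overlap in 19 of the 20 nearly fixed for fits that left out libraries. Uncalled members did turn, 13 of them without WT replicate 3. Among these were Rpl27 (from -0.22 to 0.06) and Rpl36 (from -0.09 to 0.35). Of the members described, Rpl13a (0.00) was at -0.001 with length offsets and with library totals, -0.015 without a filter, -0.02 and -0.022 in the Xist settings, -0.031 with GC offsets, -0.024 with the block as well and -0.123 with GC offsets and no WT replicate 3. Rpl3l (0.05) was at -0.019 with GC offsets and -0.027 with the block as well, and between -0.288 (GC offsets, no WT replicate 1) and -0.025 when WT replicate 1, KO replicate 1 or KO replicate 3 was left out. Rpl41 and Rplp1 were at -0.039 and -0.043, and Rpl12 at 0.036, in the GC fits without a WT library. Without a library in turn, Rpl13a was at -0.066 to 0.074, Rpl3l at -0.274 to 0.386, Rpl41 at -0.014 to 0.209, Rplp1 at -0.019 to 0.52, Rpl12 at -0.119 to 0.025 and the log2 ratio of Rpl3l to Rpl3 at -0.139 to 0.846. A planned search of 50-base stretches in the genome was not run and annotated transcripts were used in its place. The cause of these shifts was not tested. Among the members, depth most limits Rpl24, Rpl3l, Rpl10l and Rpl39l, which had at most 22 reads in a library.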
